A study of Homo sapiens with 2 samples.

Results

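The zinc finger genes of chromosome 19 were taken as all protein-coding RefSeq genes of that chromosome whose symbol starts with ZNF. There were 250 of them among 1451 protein-coding genes of chromosome 19 and 20033 in the genome. NeuroD1 binding had been mapped by ChIP-seq, a method that recovers the DNA held by a given protein with an antibody and reads it by sequencing, in IMR-32 cells, a human neuroblastoma cell line with amplified MYCN. The labels give the cells as wild type, with no treatment, and the series holds 1 ChIP library made with a NeuroD1 antibody and 1 input library of the same line without antibody, which was not analysed here. The antibody in the labels is to NeuroD1, whereas the ChIP-seq methods of the study name an antibody to acetylated H3K27, and the list was used here as it is labelled. With a single ChIP library there was no replicate and no test between groups, so all values describe this library and the intervals cover counting error only. A gene was counted as having a peak when a peak of the list overlapped it or lay within 3 kb of either end. The list held 6183 peaks, of which 364 were on chromosome 19. How many reads the library held in all is not known here.

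Most ZNF genes of chromosome 19 encode proteins with a row of DNA-binding zinc fingers behind a KRAB domain. The KRAB domain recruits TRIM28 (KAP1) and the histone methyltransferase SETDB1, and many of these proteins silence transposable elements. The genes arose largely by tandem duplication and sit in clusters, many of them in chromatin marked by H3K9me3. NeuroD1 is a basic helix-loop-helix factor of neuronal and endocrine differentiation that binds E-boxes (CANNTG) together with E-proteins.

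The promoters of the 5 ZNF genes with the highest peaks over their start show which letters lay around these starts. The windows are set by the start and are not the intervals of the peaks. Each sequence runs 5′ to 3′ in the direction of the gene and holds 300 bases of GRCh38.p14, of which 250 lie before a RefSeq start and 50 begin with it. Capitals mark E-boxes (CANNTG) and CCAAT boxes on either strand (CCAAT or ATTGG). The windows are chr19:52269337-52269636 on the plus strand for ZNF766, chr19:53467483-53467782 on the plus strand for ZNF813, chr19:2944922-2945221 on the minus strand for ZNF77, chr19:2900678-2900977 on the plus strand for ZNF57 and chr19:58278705-58279004 on the plus strand for ZNF8.
ZNF766: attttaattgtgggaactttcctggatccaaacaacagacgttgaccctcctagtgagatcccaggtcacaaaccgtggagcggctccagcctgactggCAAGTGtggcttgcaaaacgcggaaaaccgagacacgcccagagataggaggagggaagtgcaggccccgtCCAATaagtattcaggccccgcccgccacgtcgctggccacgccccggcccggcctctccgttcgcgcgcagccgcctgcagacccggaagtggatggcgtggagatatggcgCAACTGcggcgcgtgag
ZNF813: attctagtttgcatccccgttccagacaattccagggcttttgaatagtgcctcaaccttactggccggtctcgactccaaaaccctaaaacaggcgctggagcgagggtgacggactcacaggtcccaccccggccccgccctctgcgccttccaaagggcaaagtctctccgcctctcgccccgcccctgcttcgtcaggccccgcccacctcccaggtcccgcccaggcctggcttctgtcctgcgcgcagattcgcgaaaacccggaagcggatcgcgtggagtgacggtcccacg
ZNF77: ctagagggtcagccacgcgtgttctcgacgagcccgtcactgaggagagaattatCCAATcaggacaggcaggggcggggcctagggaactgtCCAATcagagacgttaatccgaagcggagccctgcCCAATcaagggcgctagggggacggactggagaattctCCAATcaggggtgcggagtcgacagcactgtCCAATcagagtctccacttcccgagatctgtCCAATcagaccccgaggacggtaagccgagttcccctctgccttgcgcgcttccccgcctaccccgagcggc
ZNF57: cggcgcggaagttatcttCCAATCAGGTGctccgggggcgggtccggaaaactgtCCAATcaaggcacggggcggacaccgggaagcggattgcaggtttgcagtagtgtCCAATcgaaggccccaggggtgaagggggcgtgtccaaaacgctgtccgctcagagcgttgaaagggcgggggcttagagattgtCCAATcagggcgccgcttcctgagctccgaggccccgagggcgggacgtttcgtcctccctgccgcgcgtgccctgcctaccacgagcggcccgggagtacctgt
ZNF8: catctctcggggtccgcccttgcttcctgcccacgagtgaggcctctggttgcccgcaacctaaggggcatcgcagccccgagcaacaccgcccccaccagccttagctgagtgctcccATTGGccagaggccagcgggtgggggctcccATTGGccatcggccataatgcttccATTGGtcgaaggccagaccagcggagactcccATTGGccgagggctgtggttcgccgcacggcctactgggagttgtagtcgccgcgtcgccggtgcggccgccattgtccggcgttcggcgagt

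In these windows ZNF766 held 2 E-boxes, CAAGTG and CAACTG, and ZNF57 held 1, CAGGTG, while ZNF813, ZNF77 and ZNF8 held none. The peak of ZNF766 ended at 52269595, before its CAACTG. The peaks of ZNF813, ZNF77 and ZNF8 ran past their windows, that of ZNF813 to 53468046, and the letters there were not searched. CCAAT boxes stood in rows in 3 of the 5 promoters. ZNF77 held 6 of them, ZNF57 held 4, and ZNF8 held 4 on the other strand. ZNF766 held 1 and ZNF813 held none. In ZNF57 the E-box CAGGTG directly followed the CCAAT box farthest from the start. With the start base as position 0, the summit lay at -116 in ZNF766, 44 in ZNF813, -65 in ZNF77, -153 in ZNF57 and -123 in ZNF8.

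Fewer ZNF genes had a NeuroD1 peak than other genes of the chromosome. A peak lay in or within 3 kb of 31 of the 250 ZNF genes, or 12.4% (95% exact Clopper-Pearson interval 8.58 to 17.1). The share was 27.3% for the other protein-coding genes of chromosome 19 (328 of 1201, 24.8 to 29.9) and 21.4% for all protein-coding genes (4283 of 20033). ZNF genes on other chromosomes had a peak in 22.0% of cases (59 of 268, 17.2 to 27.5), close to the share of all genes. The interval of the chromosome 19 ZNF genes ended at 17.1 and that of the ZNF genes elsewhere began at 17.2. Among 19 genes of chromosome 19 with other zinc finger symbols, such as ZFP and ZSCAN, 4 had a peak (21.1%, 6.05 to 45.6). Neighbouring genes can share a peak, so the genes are not independent and the intervals are too narrow to that extent.

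The gap was not smaller among genes of like length, and ZNF genes were the longer ones. The median length was 23254.5 bp for ZNF genes and 12694 bp for other genes of the chromosome. Weighted to the lengths of the ZNF genes over 5 strata, the other genes had a peak in 30.3% of cases (27.1 to 33.6). The difference, ZNF minus other, was -17.9 percentage points (-23.2 to -12.7), and the ratio of the shares was 0.409. ZNF genes had the lower share in all 5 strata, with overlapping intervals in those of up to 28050 bp. Among the shortest, from 2469 to 13126 bp, 9 of 50 ZNF genes had a peak (18.0%, 8.58 to 31.4) against 24.7% of 522 others (21.1 to 28.6). In the longest stratum 5 of 50 had one (10%, 3.33 to 21.8) against 36.7% of 177 others (29.6 to 44.3).

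**Figure D1:**
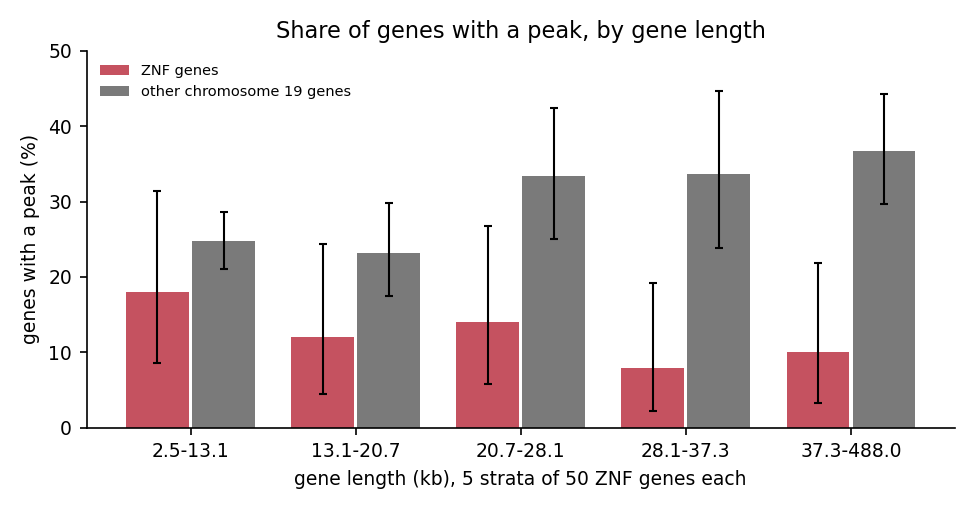
Share of genes with a peak (percent, bars with 95% exact intervals) in 5 strata of gene length, each of 50 ZNF genes, for ZNF genes (red) and other protein-coding genes of chromosome 19 (grey). The grey bars stand at 24.7% and 23.2% in the 2 strata of shortest genes and between 33.3% and 36.7% in the 3 others, while the red bars stay between 8.0% and 18.0%.

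In ratio, the gap was wider away from the listed starts of the gene itself than at them. A RefSeq start was listed for 219 ZNF genes and 966 others. A summit within 1 kb of a listed start was found for 26 of the 219 ZNF genes (11.9%, 7.90 to 16.9), against 20.1% of the other genes of chromosome 19 and 15.4% of all protein-coding genes with a listed start. Against other chromosome 19 genes of like length the ratio for the chromosome 19 ZNF genes was 0.544. Among ZNF genes on other chromosomes with a listed start, 41 of 218 had such a summit (18.8%, 13.8 to 24.6). A summit of a linked peak that lay farther than 1 kb from every listed start of its own gene was found for 6 ZNF genes (2.74%, 1.01 to 5.87). The share was 12.3% for the others of chromosome 19, and the ratio for like length was 0.182. ZNF genes on other chromosomes had such a summit in 8 of 218 cases (3.67%, 1.60 to 7.10), and all protein-coding genes in 9.04%. The low share was thus not particular to the ZNF genes of chromosome 19. Such a summit can lie at the start of a neighbouring gene, as at ZNF544, ZNF580 and ZNF581. At ZNF584 the summit lay just before the 5′ end of the gene, whose only listed start was farther inside. Neither ratio has an interval, and that of 0.182 rests on these 6 genes.

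The 31 genes were reached by 32 peaks. A single peak was found at 28 of them, 2 peaks at ZNF524 and at ZNF580, and 3 at ZNF581, and 3 peaks reached a pair of ZNF genes. The body of a ZNF gene was overlapped by 23 of the 32. Within 3 kb of 5 of the peaks lay a protein-coding gene that is no ZNF gene, and within 3 kb of 9 lay a lncRNA gene.

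The peaks at ZNF genes were of low to middling height for this list. Fold enrichment compares the pileup of ChIP reads at the summit with the local background, after 1 has been added to both. Its median over the 32 peaks was 6.75, from 4.58 to 14.0, against 7.23, from 3.44 to 42.9, over the 298 peaks linked to other genes of chromosome 19 alone. Over the whole list the median was 6.79. The upper quartile of the list, a fold enrichment of 8.68, was reached by 5 of the 32 ZNF peaks (15.6%, 5.28 to 32.8) and by 99 of the 298 (33.2%, 27.9 to 38.9). Solved from the deposited values, the ChIP reads at the summit numbered 14 in the median ZNF peak, from 10 to 28. In the peaks of the other genes the median was 16 reads. The median −log10 q was 6.33 for ZNF peaks, from 2.92 to 24.7, and 20 of the 32 had a −log10 q of at least 5. With that limit 21 ZNF genes had a peak (8.40%), against 22.6% of the other genes of the chromosome and 17.2% of all protein-coding genes.

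The highest peak lay over the start of ZNF766, a KRAB zinc finger gene on the long arm. It had a fold enrichment of 14.0 and 28 ChIP reads (95% exact Poisson interval 18.6 to 40.5) over a background of 1.04. By fold enrichment it ranked 288 of 6183, and it was the only ZNF peak in the upper 5% of the list. ZNF813, in the same cluster, followed with 12.05 and 24 reads (15.4 to 35.7). ZNF77, on the short arm, had 10.6 and 21 reads (13.0 to 32.1). ZNF57, its neighbour, had 9.16 and 18 reads (10.7 to 28.4). With the background held fixed, the counting interval of ZNF766 corresponds to a fold enrichment from 9.45 to 19.98, which overlaps those of the other three, so their order is not settled by the reads.

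A peak at chr19:58278620-58278952 had the same height as that of ZNF57, with 18 reads, and lay 123 bases upstream of the start of ZNF8. It also lay within 3 kb of the 3′ end of ZNF544 and of the divergent lncRNA ZNF8-DT. ZNF544 thus counts as a gene with a peak although its nearest listed start was 49918 bp away. ZNF837 had a fold enrichment of 8.20, with the summit 274 bases inside the gene. ZNF653, which encodes fingers without a KRAB domain, had 8.20 as well. Its peak lay beyond the 3′ end of the gene, 23678 bp from the start, and within 3 kb of ELAVL3, a neuronal RNA-binding protein gene.

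ZNF43, ZNF555 and ZNF682 each had a peak of 7.71 with 15 reads, and all 3 summits were within 98 bases upstream of a start. The ZNF43 summit was at a start inside the longest extent of the gene. ZNF584 had 7.24, and its peak lay just upstream of the 5′ end of the gene, beside the lncRNA ZNF584-DT. The nearest listed start of ZNF584 lay inside the gene, so the summit was at -7263 bp from that start. ZNF443, ZNF526 and ZNF823 had 7.23 with 14 reads. The ZNF526 peak was shared with DEDD2, a death effector domain gene. ZNF737 had 7.19 with 21 reads over a background of 2.0, so more reads gave a lower ratio than at ZNF443. ZNF627 and ZNF714 had 6.75, ZNF724 had 6.27, and ZNF564 and ZNF491 had 5.89.

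ZNF524, ZNF580 and ZNF581, short genes whose fingers come without a KRAB domain, held 5 of the 32 peaks in all. The peaks of ZNF524 had 6.27 and 5.23 and also lay near FIZ1, which encodes a zinc finger protein that binds the receptor FLT3. ZNF581 had peaks of 5.79, 5.31 and 5.19, of which that of 5.31 was also near CCDC106. The other two were shared with ZNF580, with summits 25 bases upstream of the start of ZNF580 and 23 bases upstream of the start of ZNF581. ZNF580, with 2469 bp, and ZNF524, with 3565 bp, were the shortest ZNF genes of the chromosome, and ZNF784, with 3826 bp, had no peak.

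Of 16 ZNF genes listed by name, most of them for a described role, ZNF536 had a peak and 15 had none. The share of 6.25% (0.158 to 30.2) covers the 12.4% of all ZNF genes of the chromosome in its interval. ZNF536, a brain-expressed gene that restrains neuronal differentiation, was also the longest of the 250, with 487995 bp. Its peak at chr19:30692236-30692406 had a fold enrichment of 4.98 and 10 reads (4.80 to 18.4), the lowest read count among the 32 peaks, which the ZNF581 peak near CCDC106 shared. The summit was 319920 bp from the nearest listed start, inside the gene.

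ZNF91 and ZNF93, which restrain SVA and LINE-1 elements, had no peak, nor did ZNF274, which binds the 3′ ends of zinc finger genes and recruits SETDB1. ZNF568 and ZNF808, known from placental and pancreatic development, had none. None was found at ZNF473, a factor of histone mRNA processing, or at the imprinted gene ZNF331. The same held for ZNF587, ZNF417, ZNF420, ZNF114, ZNF649, ZNF382, ZNF667 and ZNF146. ZNF420 and ZNF254 were the longest members after ZNF536, with 122467 and 96520 bp, and neither had a peak. The list holds called peaks alone, so binding too weak to be called at these genes was not detectable.

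Where a ZNF gene had a peak, the summit sat close to its start. Of the 30 ZNF peaks with a listed start, 26 had the summit within 1 kb of it (86.7%, 69.3 to 96.2), and 25 within 250 bases (83.3%, 65.3 to 94.4). For the 271 peaks linked to other genes of the chromosome alone, the shares were 66.4% (60.5 to 72.0) and 51.3% (45.2 to 57.4). The median distance was 96.5 bp for ZNF peaks and 233 bp for the others. Over pairs of a gene and a peak within 1 kb of the start, 22 of 26 summits were upstream at ZNF genes (84.6%) and 85.7% at other genes. The median position was -61 bp and -125 bp.

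E-boxes were about as frequent in the ZNF promoters with a peak as in those without, within a wide counting error. Over the 300-base window of the most upstream start, CANNTG was found in 15 of 30 ZNF genes with a peak (50%) and in 107 of 189 without (56.6%). The difference was -6.61 percentage points (-25.9 to 12.6). It was found in 62.1% of the other promoters of chromosome 19 and in 64.6% of all 15842 protein-coding promoters. The E-box form CAGATG or CATCTG was found in 13.3% with a peak and 12.2% without, against 11.7% of all promoters. CAGCTG was found in 20% and 16.9%, against 17.5%. Among the 27 ZNF start windows that a peak overlapped, 59.3% held an E-box, against 58.2% of the 244 windows that none overlapped. Over all protein-coding genes, an E-box was held by 56.2% of 2454 start windows under a peak and 66.2% of 19744 others. In these, CAGATG or CATCTG was found in 8.23% and 12.7%, and CAGCTG in 18.7% and 17.9%. A lack of more E-boxes in the windows that a peak overlapped was thus not particular to the ZNF genes. E-boxes beyond these windows were not searched, and a window without the letters says nothing about the factor.

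CCAAT boxes were more frequent in the ZNF start windows that a peak overlapped. CCAAT or ATTGG, the letters bound by the factor NF-Y, was searched after the printed promoters had been seen. It was found in 22 of the 27 ZNF start windows that a peak overlapped (81.5%, 61.9 to 93.7) and in 113 of the other 244 (46.3%, 39.9 to 52.8). Of all 22198 protein-coding start windows, 34.7% held it. At least 2 were found in 12 of the 27 (44.4%, 25.5 to 64.7) and in 40 of the 244 (16.4%, 11.98 to 21.6), against 11.4% of all protein-coding start windows. The 27 include the printed promoters, which prompted the search. ZNF682 and ZNF799 each enter with 2 overlapping windows under the same peak, so the windows are not independent. The same direction was seen for the other genes of chromosome 19, with 64.4% of 191 windows under a peak and 30.6% of 1086 without. At least 2 were held by 46.6% and 9.12% of these windows. Over all protein-coding genes, 49.8% of 2454 windows under a peak and 32.8% of 19744 others held CCAAT or ATTGG, a smaller difference. The direction was thus not particular to the ZNF genes. The median GC content was 61.7% in the ZNF windows under a peak and 59.7% in the others, and its part in this difference was not tested.

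Of 25 ZNF windows that held the summit itself, 21 held a CCAAT box, at a median of 28 bases from the summit, and 16 had one within 50 bases. An E-box was held by 14 of the 25, at a similar median of 32 bases from the summit, and was within 50 bases of it in 8. ZNF555 held 5 CCAAT boxes, the nearest 4 bases from the summit, and no E-box. ZNF682 held 3, the nearest at 4 bases, and an E-box at 1.5 bases. ZNF813, ZNF581, ZNF799 and ZNF841 held no CCAAT box. The GC box GGGCGG or CCGCCC was found in 81.5% of the 27 windows and 63.1% of the 244. The same direction was seen over all protein-coding genes, with 81.6% of the windows under a peak and 53.1% of the others. CCGGAA or TTCCGG, letters of ETS factor sites, was found in 44.4% (25.5 to 64.7) and 52.0% (45.6 to 58.5) of the ZNF windows, and in 27.6% and 20.4% of those of all protein-coding genes. It was held by 55.7% of all ZNF promoters against 22.7% of all promoters.

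An exact run of 50 bases shared with the promoter of another ZNF gene was found in 8 of the 189 promoters without a peak (4.23%, 1.84 to 8.17) and in 0 of the 30 with a peak, which allows a share of up to 11.6%. The part of shared sequence in the count of peaks was not tested.

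Along the chromosome the ZNF genes with a peak were unevenly placed. ZNF genes with gaps of at most 500 kb were joined into 20 blocks, a limit that was set after the values had been seen. The 8 blocks with 10 or more ZNF genes held 226 of the 250 in 13.96 Mb. These blocks held 31 peaks, or 2.22 per Mb. The other 333 peaks of the chromosome came to 8.43 per Mb over the length outside the blocks. That length ran from the first to the last gene, without the largest gap between protein-coding genes. Any peaks in that gap stayed among the 333, and the density of genes was not taken into account.

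Low counts in these blocks were not limited to ZNF genes. A peak was found at 26 of the 226 ZNF genes in them (11.5%, 7.65 to 16.4) and at 5 of the 86 other genes inside the same blocks (5.81%, 1.91 to 13.0). Outside the blocks 323 of 1115 other genes had one (29.0%, 26.3 to 31.7). With gaps of up to 1 Mb joined, the other genes inside had a peak in 20 of 149 cases (13.4%) and the ZNF genes in 11.4%. The 5 other genes were SMG9, SPACA6, PPP2R1A, FIZ1 and CCDC106, and the genes without a peak included 8 olfactory receptor genes, 6 NLRP genes and 12 genes with other zinc finger symbols. With a summit within 1 kb of a listed start, the shares were 11.1% for ZNF genes in the blocks (22 of 198, 7.10 to 16.3), 5.56% for the other genes inside (4 of 72, 1.53 to 13.6) and 21.3% for the other genes outside (18.6 to 24.1). The promoters of these groups also differed in CpG, a C followed by a G. The median number per promoter was 20 for ZNF genes in the blocks, 10 for the other genes inside and 22 for those outside. Over all protein-coding genes it was 29 in start windows under a peak and 19 in the others. The part of CpG in these shares was not tested.

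The blocks differed among themselves. The block from ZNF653 to ZNF791 on the short arm had peaks at 8 of 25 ZNF genes (32%, 14.9 to 53.5), among them ZNF443, ZNF564, ZNF627 and ZNF823. From ZNF101 to ZNF254, 6 of 37 had one (16.2%, 6.19 to 32.01). The block from ZNF264 to ZNF446 near the long arm's end had 6 of 43 (14.0%, 5.30 to 27.9), and that from ZNF628 to ZNF835 had 3 of 17 (17.6%, 3.80 to 43.4). From ZNF175 to ZNF331, the block of ZNF766 and ZNF813, 3 of 41 had one (7.32%, 1.53 to 19.9).

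No ZNF gene had a peak in 3 of the large blocks. These were ZNF414 to ZNF846 with 14 genes, where 0 allows a share of up to 23.2%, ZNF565 to ZNF573 with 26 genes, up to 13.2%, and ZNF575 to ZNF180 with 23 genes, up to 14.8%. In a small block from ZNF554 to ZNF77, 3 of 5 had a peak (ZNF555, ZNF57 and ZNF77).

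Peaks were found at 17 of 84 ZNF genes on the short arm side (20.2%, 12.3 to 30.4) and at 14 of 166 on the long arm side (8.43%, 4.69 to 13.7). Other genes had 30.3% and 24.6%. Between the largest gap and 51 Mb, a limit set after the values had been seen, 2 of 65 ZNF genes had a peak, ZNF536 and ZNF526 (3.08%, 0.375 to 10.7), against 141 of 478 other genes (29.5%, 25.4 to 33.8). Copy number along the chromosome in these cells was not measured here. The implied background at the 32 ZNF peaks ran from 1.04 to 2.0, and 71.9% of them were at the lowest value of the list, 1.04 when rounded to 2 decimals, against 60.4% of the peaks at other genes.

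**Figure D2:**
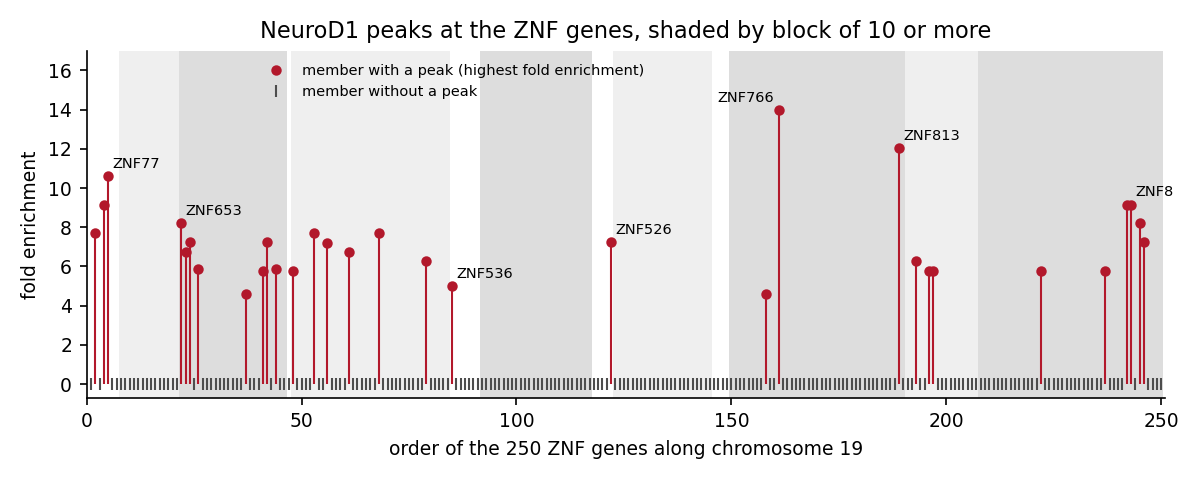
Highest fold enrichment of a peak at each of the 250 ZNF genes, in their order along chromosome 19 (red points), with genes without a peak as ticks at 0 and the 8 blocks of 10 or more shaded in alternating greys. ZNF766 and ZNF813 stand highest at 14.0 and 12.05, and 3 of the 8 shaded blocks hold no point.

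ZNF genes outside these 8 blocks had a peak in 5 of 24 cases (20.8%, 7.13 to 42.2). ZNF genes on other chromosomes with no other ZNF gene within 500 kb had one in 32 of 116 cases (27.6%, 19.7 to 36.7), those with 1 to 4 in 15 of 95 (15.8%, 9.12 to 24.7) and those with 5 or more in 12 of 57 (21.1%, 11.4 to 33.9). On chromosome 19 the same classes had a peak in 1 of 7 cases (14.3%, 0.361 to 57.9), 4 of 20 (20%, 5.73 to 43.7) and 26 of 223 (11.7%, 7.76 to 16.6). The intervals of the 3 classes overlap on either side, so no order by the number of neighbours was shown.

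Genes through which KRAB zinc finger proteins silence their targets were taken from a list chosen with earlier results of these data known. Counted here were 20 genes of that list, and no share is given for the whole of it. A peak lay in or within 3 kb of 12 of the 20 (60%, 36.1 to 80.9), where the share over all protein-coding genes was 21.4%. This share is a description of these genes alone, and gene length was not matched. SUMO2, which encodes a small ubiquitin-like modifier, had the highest peak among the 20, with a fold enrichment of 10.5. ATF7IP, the partner of SETDB1, had 9.15. CBX5, which encodes HP1 alpha, had 4 peaks, the highest of 8.68, and CBX3, which encodes HP1 gamma, had 7.05. The DNA methyltransferase genes DNMT1, DNMT3B and DNMT3A had 7.23, 6.27 and 6.08, and their cofactor UHRF1 had 3.93 with a −log10 q of 1.80. The NuRD genes CHD4, HDAC2 and CHD3 had 6.87, 5.89 and 5.31, and MORC2, which acts with the HUSH complex, had 6.13. Not all of these peaks lay at a start. The summit of the highest peak was at 26697 bp from the nearest listed start in DNMT3A, -17556 bp in DNMT3B and 3258 bp in CHD4. In the other genes with a peak it lay closer. No peak was found at TRIM28, which lies on chromosome 19, SETDB1, CBX1, HDAC1, SMARCAD1 or the HUSH genes MPHOSPH8, TASOR and PPHLN1.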

How the data were processed

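The peak list deposited for 1 NeuroD1 ChIP library of IMR-32 cells was used, and the input was not analysed here. The members, lists and comparisons were chosen with earlier results of these data known. According to the submitters' processing notes, hg38, BWA 0.7.17 and MACS2 2.2.7 were used, whereas the peak names carry the name MACS3. Which control was used, and at which q, is not given in the sources used here. The largest q in the list was 0.0414. Peaks were called on the single library, and its total depth is unknown.

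The authors deposited fold enrichment at the summit as a ratio, the ChIP pileup plus 1 over the background plus 1. The −log10 p and −log10 q deposited by the authors are Poisson values at the summit. The score deposited by the authors follows the −log10 q and was not used, nor was a last column of fold enrichment over width. Reads and background at a summit were solved from fold enrichment and −log10 p with a weight of 0.98 per read, which was inferred from the deposited values. Of the chromosome 19 peaks, 99.7% were solved within 0.01 of the −log10 p, after a check on simulated data.

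Genes, starts and promoter windows came from RefSeq on GRCh38.p14, which shares its coordinates with hg38, and positions count from 1. The table gives no exons, and 31 ZNF genes have no listed start. Where a gene has several starts, the most upstream was used for motif shares. A peak was linked to each gene it overlapped or lay within 3 kb of. The share of other genes was standardised to the ZNF lengths over 5 strata. Shares have exact Clopper-Pearson intervals and reads exact Poisson intervals, both at 95%, and those of differences are normal approximations. No p-value was computed, since there was 1 library. The rule for named genes took the 20 ZNF genes with the highest fold enrichment, those with 3 or more peaks, 16 fixed genes, the 3 longest and 3 shortest, the promoters of the 5 highest under a peak, and a list of silencing genes, of which 20 are reported here and the others were left out without regard to their values. Genes outside it were chosen after their values were seen. Alternatives comprised other distances, the summit or the nearest gene only, a −log10 q or a fold enrichment of at least 5, other strata, no standardisation, and other E-box forms and distances from starts. Those for blocks were added after the data had been seen. The software was Python 3.11.15 with scipy 1.17.1, pandas 2.3.3, numpy 2.4.6 and matplotlib 3.10.9.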

Additional observations from a re-analysis of the deposited data

How the results depend on the processing

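The ZNF genes of chromosome 19 had the lower share than other genes of like length under all 10 alternatives of the difference, which ranged from -22.0 to -11.0 percentage points. Of 50 alternative values, 41 stayed within the interval or the limit of the value reported and 9 moved beyond it. Most of them are shares, counts or medians, which have no sign to reverse. The difference in E-box share, -6.61 percentage points, did change sign. It was 1.16 with CAGATG or CATCTG, 3.07 with CAGCTG and 1.06 with the windows that a peak overlaps, all within its interval. With the gene body alone, the other genes of like length had a peak in 19.8% of cases and the difference was -11.0 points. With 10 kb around the genes the share of the others was 37.2%, and with each peak given to its nearest protein-coding gene it was 24.5%. Peaks with a −log10 q of 5 or more gave shares of 8.40% for ZNF genes and 26.0% for the others, left 20 peaks at ZNF genes, and gave a share of 7.52% for the ZNF genes in the large blocks. With gaps of up to 1 Mb in a block, the other genes inside had a peak in 13.4% of cases, so that they no longer stood below the ZNF genes.

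No paired analysis was possible because there was 1 ChIP library and no replicate. The reads at the ZNF summits, 10 to 28, limit the order of single peaks. The peak list gives no coverage outside peaks, so that weak binding, and sequence that cannot be mapped uniquely in the repeated clusters, were not measured here.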
